A study of Mus musculus with 4 samples.

Results

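The erythroid, haem and haemoglobin genes form a list of 32 gene symbols, chosen with earlier results of these data known. Of these, 31 were found among the 32285 genes counted, and Ahsp, an alpha-globin chaperone, was not analysed here. The list holds 27 genes other than haemoglobin and 4 adult haemoglobin genes (Hba-a1, Hba-a2, Hbb-bs and Hbb-bt). RNA and surface antibodies had been counted in single mouse bone marrow cells (CITE-seq) sorted for CD45.2, a leukocyte surface protein form used to tell transplanted cells from host cells, and for Kit, the receptor of blood progenitors. All cells were taken 10 weeks after transplantation. There was 1 library for each of 4 groups, labelled control, Mll3SI, Mll4SI, Mll3/4SI, and values below without a group name stand in that order. MLL3 and MLL4 are histone H3 lysine methyltransferases encoded by Kmt2c and Kmt2d. The labels do not spell out SI and call the same libraries wt, mll3KI, mll4KI and dKI. Allele, promoter, strain, sex and animal number are not given, nor what was marked by the 2 hashtag antibodies found in each library. The title of the series speaks of haematopoietic stem cells, myeloid cells and B cells, and no stated question concerns the erythroid genes.

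Red cell formation starts in progenitors shared with megakaryocytes, the cells that shed platelets. The zinc-finger factor GATA1, its partner FOG1 (Zfpm1), the helix-loop-helix factor TAL1, the repressor GFI1B and the erythroid factor KLF1 switch on the red cell genes, and erythropoietin, acting through its receptor (Epor), keeps early erythroid cells alive. Haem is built in a chain of enzymes from ALAS2 through ALAD, UROS, UROD, CPOX and PPOX to FECH, which inserts iron taken up through the transferrin receptor (Tfrc). Haemoglobin, made of alpha chains (Hba genes) and beta chains (Hbb genes), accumulates late, when cells have lost most of their Kit.

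The promoters of the receptor gene and of the alpha and beta globin genes are shown because the haemoglobin transcripts of these libraries separated by chain. Each window runs 5′ to 3′ on the gene's strand, from RefSeq on GRCm38.p6. Capitals mark AGATAA or TGATAA (letters bound by GATA factors) and CCNCACCC (letters bound by factors of the KLF family), searched on both strands, and no marked motifs overlap. The windows are chr9:21963527-21963826, minus strand (Epor), chr7:103827879-103828178, minus strand (Hbb-bs), chr7:103813874-103814173, minus strand (Hbb-bt) and chr11:32283422-32283721, plus strand (Hba-a1).
Epor: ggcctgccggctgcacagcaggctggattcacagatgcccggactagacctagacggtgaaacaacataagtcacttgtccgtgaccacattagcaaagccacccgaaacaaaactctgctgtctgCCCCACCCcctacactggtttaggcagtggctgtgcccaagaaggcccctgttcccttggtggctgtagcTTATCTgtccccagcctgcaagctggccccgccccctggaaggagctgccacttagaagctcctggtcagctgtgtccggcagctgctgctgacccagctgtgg
Hbb-bs: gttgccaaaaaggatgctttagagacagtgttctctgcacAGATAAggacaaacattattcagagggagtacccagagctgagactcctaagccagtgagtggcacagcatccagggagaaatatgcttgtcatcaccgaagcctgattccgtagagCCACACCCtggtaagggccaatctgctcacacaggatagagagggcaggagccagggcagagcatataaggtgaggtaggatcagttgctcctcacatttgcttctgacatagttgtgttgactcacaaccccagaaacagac
Hbb-bt: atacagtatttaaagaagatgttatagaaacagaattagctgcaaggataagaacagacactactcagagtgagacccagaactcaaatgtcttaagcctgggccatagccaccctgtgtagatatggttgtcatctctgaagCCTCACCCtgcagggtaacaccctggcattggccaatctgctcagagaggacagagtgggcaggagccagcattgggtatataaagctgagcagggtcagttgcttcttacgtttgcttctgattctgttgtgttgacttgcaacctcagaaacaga
Hba-a1: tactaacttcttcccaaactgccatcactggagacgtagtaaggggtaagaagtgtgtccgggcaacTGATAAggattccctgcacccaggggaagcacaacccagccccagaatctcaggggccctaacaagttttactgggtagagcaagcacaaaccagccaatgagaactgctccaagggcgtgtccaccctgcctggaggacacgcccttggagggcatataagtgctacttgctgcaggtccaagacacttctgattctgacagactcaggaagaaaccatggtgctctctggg
Both kinds of motif are present in the Epor and Hbb-bs windows. The Hbb-bt window holds the CCNCACCC motif alone and the Hba-a1 window TGATAA alone. Promoter windows were found for 26 of the 31 genes. AGATAA or TGATAA was in at least 1 window of 14 of these 26 genes, against 21.0% of all 27025 genes with a window, and CCNCACCC in 11 of 26, against 18.4%. These are letter matches within 300 bases and no binding was measured.

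After filtering, 6743 control, 8023 Mll3SI, 10186 Mll4SI and 6755 Mll3/4SI cells remained, with medians of 12799.5 to 19172 unique molecular identifiers (UMIs) of RNA per cell. Library pairs shared 16 to 29 cell barcodes, at most 0.355% of the smaller library. Xist was at 1149 and 1358 CPM (UMIs of a gene per 1000000 UMIs) in Mll4SI and Mll3/4SI and at most 0.194 CPM in the other libraries, and the Y-linked gene Eif2s3y at 63.4 and 61.9 CPM in control and Mll3SI and at 0 UMIs in the other pair. Differences tied to sex and differences tied to the group therefore cannot be told apart where Mll4SI or Mll3/4SI is compared with control. Cells were clustered without the listed genes, and a class was named erythroid-like from 18 erythroid markers that are not on the list, 15 of which marked the cluster. Surface CD117 (Kit) made up 16.8% to 22.0% of surface antibody UMIs in erythroid-like cells and 6.06% to 6.88% in all cells. With 1 library per group no test is possible. Brackets give 95% intervals, exact Poisson for CPM, exact Clopper-Pearson for shares and exact conditional for ratios, which cover counting error only.

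Erythroid-like cells were fewer in each altered library. Of the control cells, 305 of 6743 were erythroid-like, a share of 4.52% [4.04 to 5.05]. In Mll3SI there were 264 of 8023 (3.29% [2.91 to 3.704]), Mll4SI held 138 of 10186 (1.35% [1.14 to 1.60]), and 87 of 6755 (1.29% [1.03 to 1.59]) came from Mll3/4SI. As ratios of control these shares were 0.727 [0.617 to 0.857], 0.2995 [0.244 to 0.366] and 0.285 [0.223 to 0.361]. The size of the difference depended on the other cells counted. Among cells outside the granulocyte-monocyte-like class and outside a cluster set aside below, the shares were 18.7%, 15.8%, 11.0% and 11.0%, which are ratios of 0.588 for Mll4SI and 0.589 for Mll3/4SI. When each cell took the class of its nearest control cells, the Mll3/4SI ratio was 0.511. Within hashtags the shares were 5.43% of control cells with Hashtag1 alone against 3.49%, 1.61% and 1.61%, and 3.56% with Hashtag2 alone against 3.15%, 1.01% and 0.907%. For Mll3SI with Hashtag2 the ratio of 0.886 has an interval of 0.688 to 1.14, which includes 1.

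Most of the genes were highest in the erythroid-like class, which they had not been used to define. Because the list was chosen with earlier results of these data known, the counts below describe it and do not test it. Of the 31, 26 had their highest mean over libraries there, and 12 were at least 10 times as high as in the next class. In each erythroid-like library 18 were higher than in any library of the other 7 named classes. The shares of all genes that meet these rules were not computed. Car1 (carbonic anhydrase 1, ENSMUSG00000027556, GRCm38 chromosome 3, 14766216 to 14808368) was at 2615, 2517, 3205 and 2381 CPM in erythroid-like cells and at a mean of 13.8 CPM in basophil/mast-like cells, the next class. Slc25a21, a mitochondrial carrier of oxodicarboxylates, was at 576, 515, 533 and 508 CPM against a mean of 1.39 CPM in the next class. Ermap (a membrane protein of red cells), Rhd (the Rh antigen), Sphk1 (a sphingosine kinase), Cldn13 (a claudin) and Tspo2 (a transporter of cholesterol in late red cell precursors) were each far higher than in the next class, with ratios from 57.9 for Rhd to 133 for Ermap. Their libraries did not overlap with those of any other class.

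**Figure D1:**
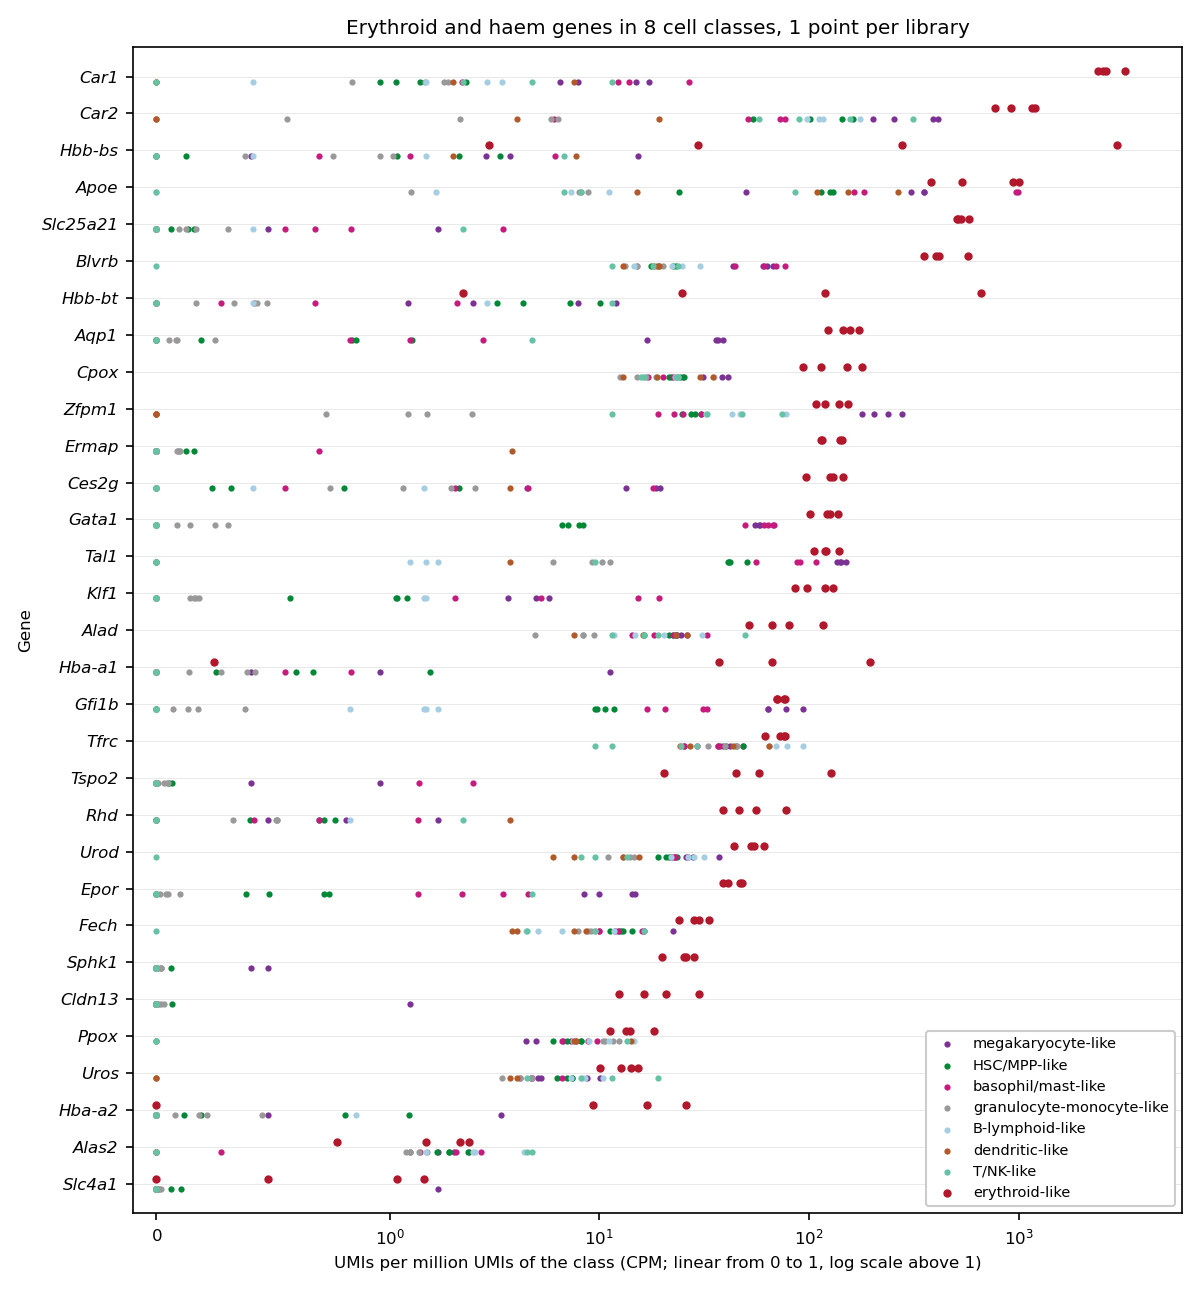
Level of each of the 31 genes (rows, ordered by mean erythroid-like level) in 8 cell classes; the horizontal axis is CPM, linear from 0 to 1 and logarithmic above, and each point is 1 library in 1 class. The erythroid-like points stand to the right of all others for 18 genes, whereas those of Alas2 and Slc4a1 lie at or below 2.40 CPM among the other classes.

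In 13 genes the libraries of the erythroid-like class overlapped with those of another class or lay below them: the 4 haemoglobin genes, described further on, Uros and Ppox, which were 1.21 and 1.26 times as high as in the next class, and the 7 genes that follow. Tal1, Gfi1b and Zfpm1 were highest in megakaryocyte-like cells, where their means were 142, 74.6 and 224 CPM against 121, 73.4 and 130.2 CPM in erythroid-like cells, and for Tal1 and Gfi1b the libraries of the 2 classes overlapped. Tfrc, used by all dividing cells for iron uptake, was at 61.9 to 76.6 CPM in erythroid-like cells and at a mean of 76.5 CPM in B-lymphoid-like cells. Apoe, the apolipoprotein E gene, had nearly the same level in control basophil/mast-like cells (967 CPM) as in control erythroid-like cells (934 CPM). Alas2, the first enzyme of the erythroid haem chain, was at 0.774, 1.49, 2.18 and 2.40 CPM in erythroid-like cells, on 5 or 6 UMIs each, and within the range of the other classes, and Slc4a1, the anion exchanger of mature red cells, reached at most 1.45 CPM. The cells thus carried transcripts of the later haem enzymes with almost none of Alas2 or Slc4a1.

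With all erythroid-like cells counted, the genes of the transcription factors were within 0.5 of control on the log2 scale in each library. Klf1 in Mll4SI passed that limit without cells of 10 or more haemoglobin UMIs, with 77.9 against 118 CPM (-0.60). Gata1 (ENSMUSG00000031162, chromosome X, 7959260 to 7978071) was at 122, 101, 126 and 137 CPM. Klf1 (ENSMUSG00000054191, chromosome 8, 84901928 to 84905291) was at 119, 97.7, 85.7 and 130.2 CPM. Mll4SI was the lowest library for Klf1, with a log2 ratio to control of -0.47 [-0.69 to -0.27]. Mll3/4SI was the highest with all cells counted, but not without the haemoglobin-rich cells (115 against 118 CPM in control). Tal1 was at 119, 106, 138 and 121 CPM, Gfi1b at 76.0, 70.3, 70.4 and 76.9, and Zfpm1 at 139.6, 119, 108 and 154. No library was lowest for all 5 genes. With every cell thinned to 3000 UMIs (5, 5, 3 and 7 shallower cells left out), the shares of erythroid-like cells with a Klf1 UMI were 23.0% [18.4 to 28.2], 22.4% [17.5 to 28.0], 16.3% [10.5 to 23.6] and 23.8% [14.9 to 34.6], and the intervals overlap. Without thinning the shares were 68.5%, 56.1%, 48.6% and 71.3%. In granulocyte-monocyte-like cells, which should lack Klf1, the thinned share was at most 0.0634%.

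Epor was at 40.9 [36.1 to 46.1], 47.0 [40.5 to 54.2], 38.8 [31.8 to 46.9] and 48.0 [39.1 to 58.4] CPM, with overlapping intervals. Its log2 ratios were 0.20 [-0.08 to 0.48], -0.07 [-0.41 to 0.26] and 0.23 [-0.11 to 0.57]. From a list of 18 genes of signalling around the receptor, which includes Kit, itself another receptor, 14 reached a mean of 5 CPM. None was higher and 1 lower by 0.5 or more on the log2 scale in Mll3SI (2.56% of all 9673 genes tested were higher and 2.76% lower), 3 higher and 1 lower in Mll4SI (6.36% and 4.42%), and 1 higher and 2 lower in Mll3/4SI (4.36% and 9.09%). Those of Mll4SI included the survival gene Bcl2l1 at 1.31 [0.77 to 2.14] and the adaptor Gab2 at 0.82 [0.65 to 1.01]. The highest of Mll3/4SI was the kinase gene Pim1 at 0.75 [0.49 to 1.04].

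Of 24 partner transcription factors of the erythroid programme, all reached 5 CPM. None was called in Mll3SI. In Mll4SI 4 were higher (6.36% of all genes) and 1 lower (4.42%), and in Mll3/4SI 1 was higher (4.36%) and 2 lower (9.09%), a share near that over all genes. Sox6, a factor that silences embryonic globin genes, had the largest ratio of the 24 in both, with 1.84 [1.52 to 2.32] for Mll4SI and 1.02 [0.57 to 1.57] for Mll3/4SI. Fli1, a megakaryocyte factor, and Spi1, the myeloid factor PU.1, stood at 0.65 [0.49 to 0.82] and 0.65 [0.34 to 0.98] in Mll4SI and at -0.32 [-0.56 to -0.09] and -0.53 [-1.05 to -0.08] in Mll3/4SI. Mafk, a small Maf partner of NF-E2, was at -0.84 [-1.67 to -0.21] in Mll3/4SI. Beside the values of Mll4SI stands a higher level of 15 granulocyte marker genes in its erythroid-like cells, summed to 16666 CPM against 2641 (control), 3012 (Mll3SI) and 1318 (Mll3/4SI). In their own class those markers summed to between 155598 and 229513 CPM. None of the 15 was at 0 in erythroid-like cells of Mll4SI or Mll3SI, 1 was in control and 3 were in Mll3/4SI. Their part in the Mll4SI results was not tested.

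Of the 27 genes other than haemoglobin, 25 passed the mean of 5 CPM in erythroid-like cells. Their median log2 ratios for Mll3SI, Mll4SI and Mll3/4SI were -0.16, -0.24 and 0.14, beside 0.01, 0.02 and -0.07 over all 9673 genes. In Mll3SI only Rhd was called (lower, 1 of 25 against 2.76% of all genes), and 20 of the 25 ratios were below 0. In Mll4SI Tspo2, Apoe and Alad were lower (3 of 25 against 4.42%) and none was higher (6.36%). In Mll3/4SI Cldn13, Tspo2, Alad, Uros and Cpox were higher (5 of 25 against 4.36%) and Car2 and Apoe lower (2 of 25 against 9.09%). Tspo2 had the largest ratio in size in both of the latter libraries. Of the 18 erythroid markers that are not on the list, 16 passed. None was higher and 3 were lower in Mll3SI, 2 higher and 4 lower in Mll4SI, and 7 higher and none lower in Mll3/4SI, with medians of -0.32, -0.02 and 0.35, and these markers were used to name the class.

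**Figure D2:**
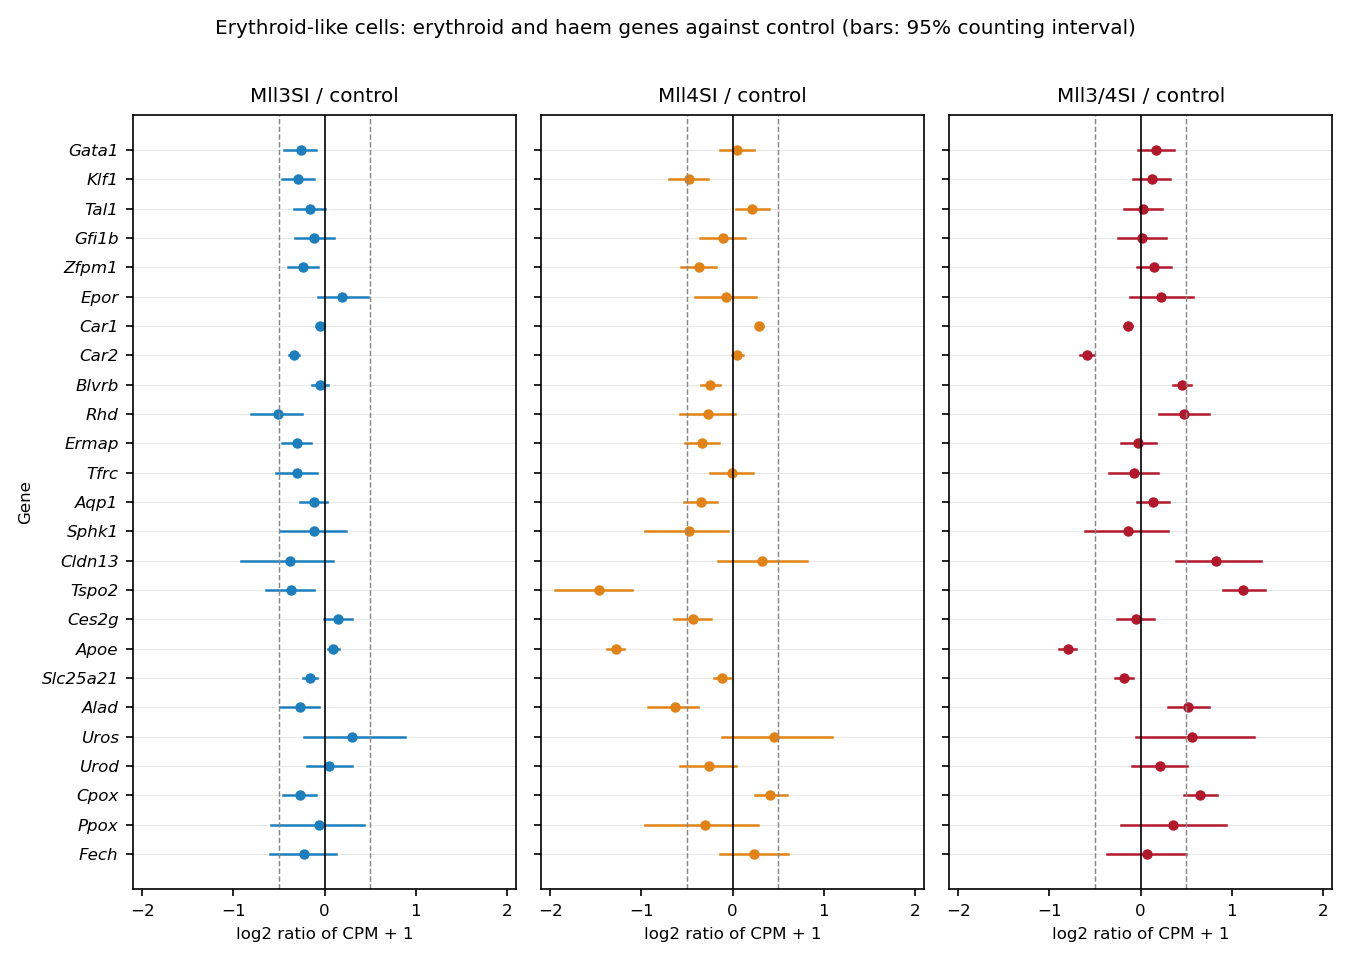
Log2 ratio to control of CPM + 1 in erythroid-like cells (horizontal axis) for the 25 genes other than haemoglobin that passed 5 CPM, in 1 panel per altered library; points are ratios, bars the 95% interval of the ratio without the added 1, and dashed lines the limits of 0.5. Apoe and Tspo2 stand outside the limits in both Mll4SI and Mll3/4SI, Apoe to the left in both and Tspo2 on opposite sides.

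Tspo2 (ENSMUSG00000023995, chromosome 17, 48447907 to 48451522) was at 58.1 [52.3 to 64.2], 44.7 [38.4 to 51.8], 20.3 [15.4 to 26.4] and 127 [112 to 144] CPM. The intervals of the 4 libraries do not overlap. The log2 ratios were -1.47 [-1.95 to -1.11] for Mll4SI and 1.12 [0.90 to 1.36] for Mll3/4SI. In cells thinned to 3000 UMIs, 45 of 300 control erythroid-like cells had a Tspo2 UMI, and the shares in the altered libraries were 12.7%, 5.93% and 32.5%, beside all 4 shares of 49.2%, 34.1%, 19.6% and 57.5% without thinning and at most 0.0197% of thinned granulocyte-monocyte-like cells. The order was the same under each hashtag, with 54.6, 39.3, 21.0 and 108 CPM for Hashtag1 and 63.1, 53.1, 21.1 and 153 CPM for Hashtag2.

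Among the surface proteins and other enzymes, Blvrb, the biliverdin reductase of red cells, was at 417, 402, 352 and 571 CPM, with a log2 ratio of 0.45 [0.35 to 0.55] in Mll3/4SI, which was -0.16 (367 against 409.5 CPM) without cells of 10 or more haemoglobin UMIs. Aqp1, the water channel, was at 157, 145, 123 and 173 CPM, Ermap at 143, 116, 114 and 141, and Ces2g, a carboxylesterase, at 131, 145, 96.6 and 126. Mll4SI was the lowest of the 4 libraries for Blvrb, Aqp1, Ermap and Ces2g with both hashtags together. Among Hashtag2 cells it was above control for Blvrb (475 against 438 CPM) and Ermap (154 against 149 CPM). Rhd was at 55.7, 38.8, 46.1 and 77.8 CPM, Sphk1 at 28.2, 25.9, 19.97 and 25.5, and Cldn13 at 16.4, 12.4, 20.7 and 29.8. Rhd in Mll3SI depended on the hashtag, with a log2 ratio of -1.10 for Hashtag1 alone and 0.079 for Hashtag2 alone. In Mll4SI Rhd was at 25.6 CPM in Hashtag1 cells and 96.7 in Hashtag2 cells, against 51.02 and 51.7 in control. Cldn13 in Mll4SI was likewise opposite between hashtags, at 5.91 CPM in Hashtag1 and 54.5 in Hashtag2 against 14.9 and 16.2 in control, and without its 3 haemoglobin-rich cells it was at 9.93 CPM (-0.53).

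The haem enzymes differed from each other. Cpox, coproporphyrinogen oxidase, was at 114, 94.0, 152 and 179 CPM, and Alad, which makes porphobilinogen, at 80.7, 66.6, 51.6 and 116. Mll4SI was thus above control for Cpox and below it for Alad, with log2 ratios of 0.42 [0.24 to 0.59] and -0.64 [-0.92 to -0.38]. Urod was at 52.6, 54.7, 43.9 and 61.0 CPM, Fech at 28.3, 24.1, 33.4 and 29.8, Ppox at 14.1, 13.4, 11.3 and 18.3, and Uros at 10.1, 12.7, 14.2 and 15.4, and for these 4 the interval of every ratio to control included 0. From 26 further haem and iron genes, 24 passed 5 CPM, and none was called in Mll3SI. The 1 higher gene of Mll4SI (6.36% of all genes) and the 2 higher genes of Mll3/4SI (4.36%) were few, and the count of Mll4SI was below the share over all genes. They were Alas1 in Mll4SI at 0.81 [0.43 to 1.25], and the porphyrin transporter gene Tmem14c and the ferritin gene Ftl1 in Mll3/4SI at 0.58 [0.46 to 0.70] and 0.56 [0.48 to 0.63]. Alas1 is the form of the first haem enzyme that all tissues use.

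The higher haem values of Mll3/4SI rested on few cells. In that library 8 of the 87 erythroid-like cells held 10 or more haemoglobin UMIs, against 1 of 305 (control), 0 of 264 (Mll3SI) and 3 of 138 (Mll4SI). These cells were picked by genes of the list itself, and Hbb-bs was at 1104 CPM in the high and 2.52 in the low marker tertile described below. Leaving them out trims Mll3/4SI more than control, so lower values there can be built in. Without such cells 12 of the 25 genes turned from above control to below it in Mll3/4SI, and the share of all genes that turned was not computed. Of the 25, 7 were then called lower (8.07% of all genes) in place of 2, and 1 higher (5.34%) in place of 5. The median log2 ratio over the list was -0.14, Cpox stood at 78.0 CPM against 111 in control (a log2 ratio of -0.51), Alad at 72.2 against 79.1 (-0.13), and Cldn13 at 8.15 against 14.8 (-0.79). Rhd turned as well, to 30.8 against 52.4 CPM (-0.74), as did Epor (34.3 against 40.7 CPM, -0.24) and Blvrb. Tspo2 stayed above control (94.3 against 57.7 CPM, 0.70), and Car2 (-1.11) and Apoe (-0.53) stayed below it. With cells classed by their nearest control cells the Mll3/4SI median was -0.34, Alad was at -0.088, Cpox at 0.0013 and Tspo2 at 0.40. In Mll4SI, leaving out its 3 such cells moved Rhd from -0.27 to -1.33 and Alad from -0.64 to -1.02. Of the 25 genes, 9 were then called lower in Mll4SI (4.61% of all genes) in place of 3 and none higher (6.88%), and Car2, Cldn13 and Fech turned from above control to below it. In Mll3SI none was then called higher (2.54% of all genes) or lower (2.75%), since Rhd moved to -0.42 when the 1 such control cell was left out.

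Apoe (ENSMUSG00000002985, chromosome 7, 19696109 to 19699188) was lower in Mll4SI in each of the 5 largest classes. In erythroid-like cells it was at 934 [911 to 958], 999 [968 to 1030.1], 383 [360.2 to 407] and 536 [505 to 569] CPM, log2 ratios of -1.28 [-1.38 to -1.19] for Mll4SI and -0.80 [-0.89 to -0.71] for Mll3/4SI. In megakaryocyte-like cells it was at 353, 352, 50.3 and 308 CPM, in HSC/MPP-like cells (stem and multipotent progenitors) at 126, 130.3, 24.1 and 115, and in granulocyte-monocyte-like cells at 8.19, 8.88, 1.27 and 8.04. In these 3 classes Mll3/4SI was within 0.5 of control on the log2 scale with all cells of the class counted. For HSC/MPP-like cells this leaves out the Mll3/4SI cluster set aside below, which carried HSC/MPP markers and had Apoe at 12.6 CPM. That cluster held 683 cells of Mll3/4SI, against 325 in its HSC/MPP-like class, so the value depends on setting it aside. In basophil/mast-like cells, however, Mll4SI and Mll3/4SI were both low, at 164 [144 to 186] and 183 [169 to 197] CPM against 967 [928 to 1007] in control and 989 [938 to 1042] in Mll3SI. Mll4SI was below control under both hashtags, with 23.3 against 163.6 CPM (Hashtag1) and 26.5 against 85.9 CPM (Hashtag2) in HSC/MPP-like cells. Mll3/4SI lay on opposite sides of control there, at 107 CPM with Hashtag1 and 130 CPM with Hashtag2.

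Car2 (carbonic anhydrase 2, ENSMUSG00000027562, chromosome 3, 14886273 to 14900770), which like Car1 interconverts carbon dioxide and bicarbonate, was lowest in Mll3/4SI in each of the same 5 classes. It was at 1157 [1131 to 1184], 915 [886 to 945], 1199 [1158 to 1240.4] and 769 [732 to 808] CPM in erythroid-like cells, at 392, 411, 254 and 202 in megakaryocyte-like cells and at 161, 144, 101 and 54.2 in HSC/MPP-like cells. In basophil/mast-like cells it was at 76.7 [66.05 to 88.7], 73.1 [59.8 to 88.4], 51.2 [40.2 to 64.1] and 6.09 [3.81 to 9.22] CPM, and in granulocyte-monocyte-like cells at 6.36, 5.90, 2.18 and 0.560. Outside the erythroid-like class Mll4SI lay between control and Mll3/4SI. In HSC/MPP-like cells thinned to 3000 UMIs, the shares with a Car2 UMI were 34.0% [30.8 to 37.3], 31.7% [28.6 to 35.0], 23.6% [20.5 to 26.9] and 14.0% [10.4 to 18.2], beside 71.7%, 64.6%, 53.6% and 49.8% without thinning. In granulocyte-monocyte-like cells the thinned shares were 1.44%, 1.35%, 0.531% and 0.172%.

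**Figure D3:**
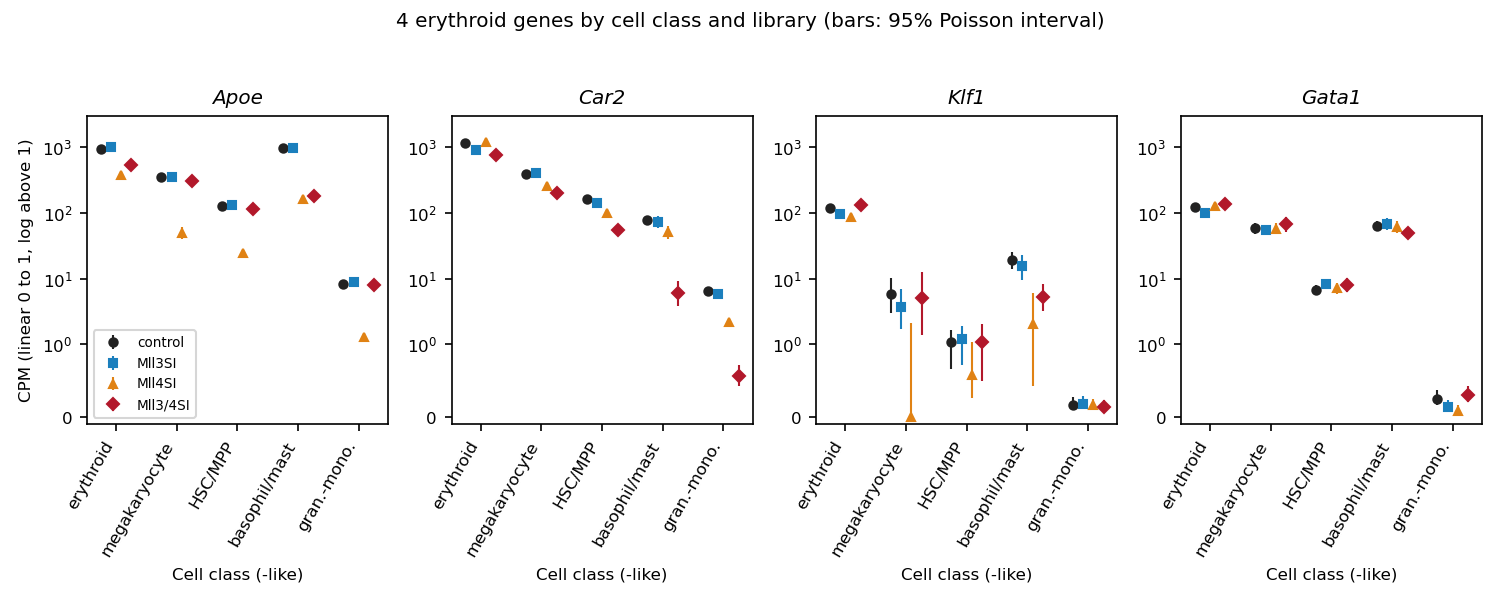
CPM of Apoe, Car2, Klf1 and Gata1 (1 panel each, vertical axis linear from 0 to 1 and logarithmic above) in the 5 largest cell classes, with 1 symbol per library and 95% Poisson bars. Mll4SI (triangles) lies lowest for Apoe in each class, Mll3/4SI (diamonds) lowest for Car2 in each class, and the Gata1 symbols lie close together in all but the granulocyte-monocyte-like class, where all are at or below 0.307 CPM.

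In HSC/MPP-like cells 14 of the 27 genes passed 5 CPM, and their median log2 ratios were -0.04, -0.06 and -0.02 in Mll3SI, Mll4SI and Mll3/4SI, beside 0.02, -0.01 and -0.06 over all 10073 genes tested. None was called in Mll3SI (0.874% of all genes were higher and 1.16% lower). In Mll4SI Car2 and Apoe were lower (3% of all genes) and in Mll3/4SI Car2 (2.35%). The log2 ratios were -0.67 [-0.76 to -0.59] and -2.34 [-2.55 to -2.23] in Mll4SI, and -1.56 [-1.72 to -1.43] for Car2 in Mll3/4SI. The Mll3/4SI cluster set aside, which these values leave out, had Apoe at 12.6 CPM and Car2 at 24.8 CPM. The factors were near control: Gata1 was at 6.65, 8.41, 7.07 and 8.05 CPM, Tal1 at 41.7, 42.2, 50.8 and 40.9, and Klf1 at 0.573 to 1.21 CPM. The 18 other erythroid markers summed to 61.3, 54.3, 61.4 and 62.0 CPM in these cells. Granulocyte markers summed to 7186, 7324, 15485 and 8089 CPM, and the part of that excess in the Mll4SI values was not tested.

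Basophils and mast cells also use GATA factors, and 17 of the 27 genes passed 5 CPM in them. In Mll4SI 9 were lower and none higher (8.19% of all 10043 genes were lower and 9.32% higher), and in Mll3/4SI 8 were lower and none higher (16.1% and 7.76%). In Mll3SI 3 were higher and 2 lower (6.45% and 8.14%). Klf1 was at 19.2 [14.0 to 25.6], 15.3 [9.59 to 23.2], 2.05 [0.422 to 5.98] and 5.26 [3.17 to 8.21] CPM, so that neither Mll4SI nor Mll3/4SI overlapped with control. Car1 was at 26.7, 13.9, 12.3 and 2.21 CPM, and Gata1 at 63.8, 68.2, 60.7 and 49.3. Gfi1b was at 32.5, 31.3, 20.5 and 16.9 CPM, and Ces2g at 4.59, 18.1, 2.05 and 0.553. Klf1 of Mll3/4SI differed between hashtags, with 14.5 CPM in Hashtag1 and 1.57 in Hashtag2 against 17.8 and 18.9 in control. The 18 other erythroid markers moved the same way, with sums of 171, 135, 117 and 93.5 CPM and with 4 to 7 of them at 0. Granulocyte markers summed to 7376, 6865, 17442 and 11310 CPM. The part of either in the lower values was not tested.

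Within the erythroid-like class, most of the listed genes were higher in cells with more of the other erythroid markers. The 794 cells of the 4 libraries were split into tertiles by their share of UMIs in the 18 markers, at limits of 464 and 724 CPM. Of 29 genes with a mean of 5 CPM, haemoglobin included, 25 were at least 1.5 times as high in the high tertile as in the low tertile. The share of all genes that did so was not computed, and the rise of the haemoglobin genes rests on few cells, described further on. Cldn13 differed most among genes other than haemoglobin, from 1.26 to 37.1 CPM, followed by Rhd, from 4.54 to 100.2. Klf1 went from 61.1 through 99.5 to 146 CPM, Epor from 23.7 through 38.1 to 58.9, and Cpox from 39.6 through 96.9 to 198. Gata1 (104, 111 and 135 CPM), Tal1 (118, 124 and 116) and Zfpm1 (138, 129.9 and 126) changed by less than 1.5 times with the libraries summed. Apoe went down, from 1075 through 912 to 539.6 CPM, and was lower in the high than in the low tertile by 1.73 to 2.66 times in each library. Within single libraries Zfpm1 went down in Mll3/4SI, from 214 through 166 to 125 CPM, and Gata1 went up in Mll4SI, from 99.7 through 129 to 161 CPM.

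**Figure D4:**
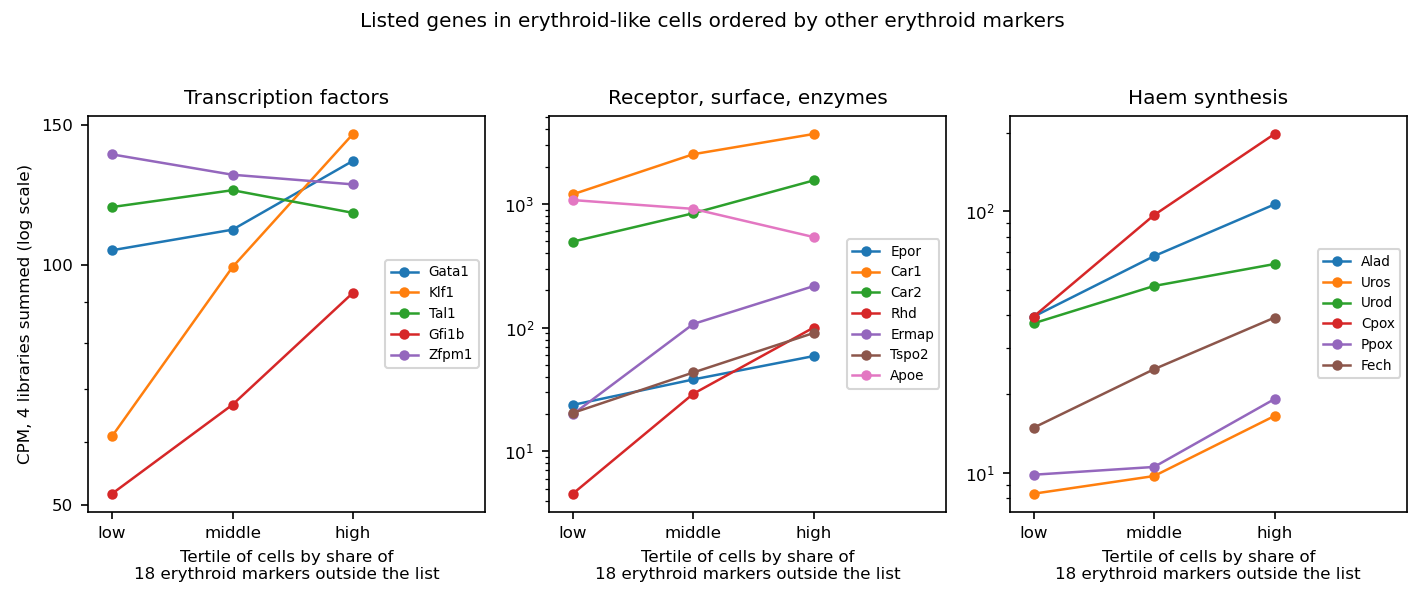
CPM (vertical axis, logarithmic, 4 libraries summed) of listed genes in the low, middle and high tertile of erythroid-like cells, ordered by 18 erythroid markers outside the list, in 3 panels by role. Lines of the haem enzymes and of the receptor, Rhd, Ermap and Tspo2 climb to the right, Tal1 and Zfpm1 stay level and Apoe descends.

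The libraries held different shares of these tertiles. The high tertile took 38.7% [33.2 to 44.4], 29.2% [23.8 to 35.1], 23.2% [16.4 to 31.1] and 43.7% [33.1 to 54.7] of the erythroid-like cells, and the low tertile 25.2%, 35.2%, 51.4% and 27.6%. Of the 794 cells, 221 lay within 10% of a limit. Given equal weight to tertiles, the median of Mll4SI turned from -0.24 to 0.10. Apoe was lower in Mll4SI in each tertile, at 490.1, 404 and 216 CPM in the low, middle and high tertile against 1615, 1047 and 608 in control. Tspo2 was also lower in each, at 10.3, 17.3 and 36.9 CPM against 18.1, 49.9 and 78.3. Mll3/4SI exceeded control for Tspo2 in each tertile, at 44.4, 68.6 and 191 CPM.

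Haemoglobin transcripts were scarce in nearly all cells and were held by a few. In erythroid-like cells Hbb-bs was at 29.6 [25.5 to 34.1], 2.98 [1.54 to 5.21], 277 [258 to 297] and 2949 [2876 to 3024] CPM, and Hbb-bt at 24.8, 2.24, 119 and 662. Hba-a1 was at 37.2, 0.249, 195 and 66.3 CPM, and Hba-a2 at 9.29, 0, 25.8 and 16.8, where 0 UMIs in Mll3SI allow up to 0.746 CPM. The 4 libraries do not overlap in Hbb-bs. These values describe few cells, since the 3 cells with most haemoglobin UMIs held 94.3%, 59.1%, 99.3% and 73.9% of them. Without those 3 cells the summed level was 5.87, 2.26, 4.58 and 1027 CPM. In granulocyte-monocyte-like cells, which should lack haemoglobin, the sum was 2.39 [2.09 to 2.72], 1.68 [1.43 to 1.96], 0.769 [0.622 to 0.940] and 1.86 [1.62 to 2.13] CPM. The embryonic and theta globin genes had at most 1 UMI in erythroid-like cells of a library.

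The haemoglobin-rich cells of Mll3/4SI differed in chain from those of the other libraries. Of its 6 erythroid-like cells with 100 or more haemoglobin UMIs, 5 held almost no alpha chain transcripts. Their Hbb-bs plus Hbb-bt UMIs were 2244, 2146, 1285, 1041 and 601, and their Hba-a1 plus Hba-a2 UMIs 0, 2, 6, 1 and 0. All 5 carried Hashtag2 alone. The remaining cell carried Hashtag1 alone and held 168 beta and 150 alpha UMIs. The control cell held 321 beta and 281 alpha UMIs, and the Mll4SI cells 744 and 471, and 320 and 132. These control and Mll4SI cells also carried Hashtag2 alone, so that hashtag was not particular to the cells with few alpha UMIs. Beta chains thus made up 97.7% [97.4 to 98.1] of haemoglobin UMIs in Mll3/4SI erythroid-like cells, against 53.9% [50.001 to 57.8] in control and 64.2% [61.9 to 66.5] in Mll4SI, and 95.5% [77.2 to 99.9] of only 22 UMIs in Mll3SI. Each of the 5 cells had 1 or 0 Alas2 UMIs and from 1 to 17 Klf1 UMIs. Of the 5, 4 held 47347 to 60389 RNA UMIs and 1 held 21878, where the median of the class in Mll3/4SI was 20339. High RNA counts were not particular to them. The Mll3/4SI cell with Hashtag1 held 54865, the Mll4SI cells 56611 and 33056, and the control cell 24936. None of the 5 cells was above both hashtag thresholds, and doublets of cells with the same hashtag were not tested. The Hba-a1 and Hba-a2 transcripts were identical at 537 of 538 aligned bases and those of Hbb-bs and Hbb-bt at 579 of 624, so that reads could be split unevenly between the members of each pair, while Hba-a1 and Hbb-bs matched at 194 of 305 aligned bases.

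**Figure D5:**
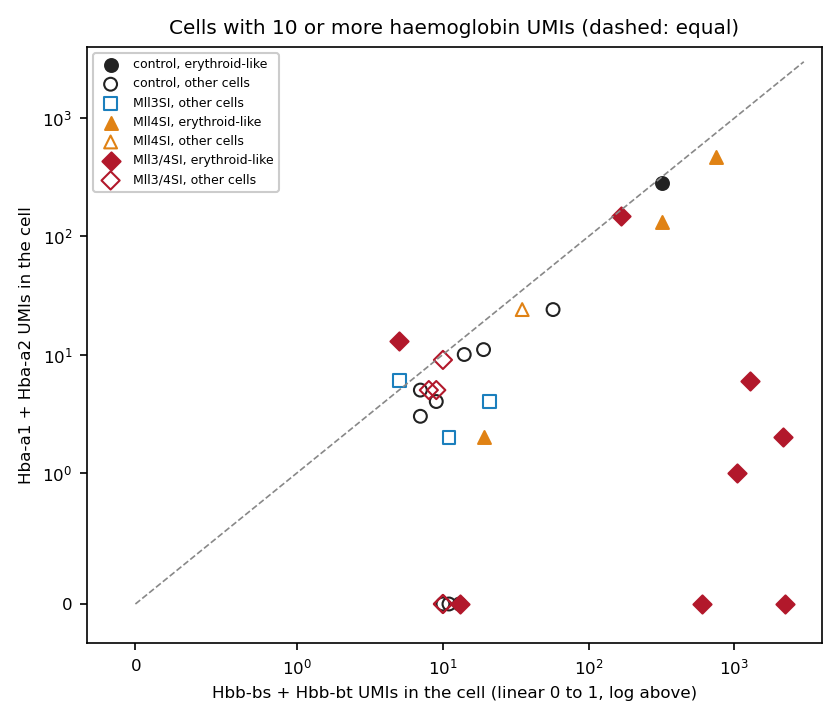
Alpha chain UMIs (vertical) against beta chain UMIs (horizontal) in each of the 30 kept cells with 10 or more haemoglobin UMIs, both axes linear from 0 to 1 and logarithmic above; filled symbols are erythroid-like cells, open symbols other cells, and the dashed line marks equal counts. Of the Mll3/4SI cells (diamonds), 5 with 601 or more beta UMIs lie at 6 or fewer alpha UMIs, while the control and Mll4SI cells with over 100 UMIs hold 132 to 471 alpha UMIs.

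Hbb-bt was the main beta chain transcript in HSC/MPP-like cells. It made up 75.0% [69.2 to 80.2], 77.1% [69.3 to 83.8], 96.2% [87.0 to 99.5] and 80.0% [65.4 to 90.4] of their beta chain UMIs, against 31.3%, 36.2%, 30.9% and 25.9% in granulocyte-monocyte-like cells of the same libraries. In megakaryocyte-like cells it was 80.6% [62.5 to 92.5] of 31 beta UMIs in control and 34.1% [20.1 to 50.6] of 41 in Mll4SI, and the other 2 libraries held 5 or fewer beta UMIs there. The HSC/MPP-like counts were 189, 108, 51 and 36 Hbb-bt UMIs and 63, 32, 2 and 9 Hbb-bs UMIs. HSC/MPP-like cells with 10 or more haemoglobin UMIs numbered 6 in control, 2 in Mll3SI and 2 in Mll3/4SI, and they were of 2 kinds. In 4 of them, 3 of control and 1 of Mll3/4SI, 10 to 12 UMIs were Hbb-bt, at most 1 was Hbb-bs and none was alpha. All the others held alpha UMIs, from 2 to 24, and at least as many Hbb-bs as Hbb-bt UMIs. The intervals of HSC/MPP-like and granulocyte-monocyte-like cells did not overlap in this share in any library, and the Hbb-bt level in HSC/MPP-like cells was 10.1 [8.74 to 11.7], 7.26 [5.96 to 8.77], 3.25 [2.42 to 4.27] and 4.32 [3.03 to 5.98] CPM.

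In Mll3/4SI a cluster of 683 cells (10.1% of that library, with 1 further cell in Mll4SI) was set aside after the clusters were seen, because nearly all of it came from 1 library and it carried both HSC/MPP and erythroid markers. It held 49.1% of all Zfpm1 UMIs of that library, 40.1% of those of Gfi1b and 36.7% of those of Tal1, but 1.54% of those of Klf1. Its Klf1 count was 5 UMIs, its Car1 count 22 and its Slc25a21 count 2, while Sphk1, Cldn13 and Slc4a1 had none. Over all kept cells, which mix cell number and level per cell, the median log2 ratio of the 17 genes that passed 5 CPM was -0.29, -0.92 and -0.33 for the altered libraries, beside -0.02, -0.12 and -0.06 over all 9646 genes. Fewer erythroid cells and less RNA per cell cannot be told apart in that sum.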

How the data were processed

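RNA of CD45.2+Kit+ bone marrow cells was counted in 4 libraries, 1 per group, with 10x Genomics 3′ chemistry. The deposited values are counts of UMIs per gene and cell, produced by Cell Ranger 7.1.0, per the file headers, on build mm10 per the submitters' processing notes. The authors' cell-calling settings are not given in the sources used here, and barcodes start at 500 or 501 gene UMIs. Per-sample value columns left unused numbered 0. Gene totals per library were 140546094 to 177753607 UMIs.

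Cells with at least 500 genes, 1000 UMIs and at most 10% mitochondrial UMIs were kept, and the top 0.8% per 1000 cells by Scrublet score removed (409, 594, 1001 and 411 cells). Hashtag thresholds were 118 and 334 UMIs, and cells above both made up 2.28% to 5.56%. Joint clustering (Python 3.11.15, scanpy 1.11.5, 2000 variable genes without the listed genes and markers, 30 components, 15 neighbours, Leiden resolution 1) gave classes named by at least 3 markers, with a lead of 2 over the next class. UMIs were summed per class and library. Ratios are log2 of CPM + 1 to control, which understates the change of low genes. A gene passed at a mean of 5 CPM and was called at 0.5 or more in size. A count of 0 allows up to 3 UMIs. PCR duplicates are removed by UMIs, and intervals cover counting error only. Ratios of shares combine the exact limits of both shares.

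The 32 genes, the other lists, the tests and the markers were chosen with earlier results of these data known. Full values were given by library for listed genes of at least 20 CPM in erythroid-like cells or a log2 ratio of at least 1 in a class named, and at most 4 genes were named from each other list. Positions are from GENCODE M21 on GRCm38, matched by gene ID, and promoters from RefSeq. Scripts were tested on simulated data.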

Additional observations from a re-analysis of the deposited data

Results flagged for a closer look

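In Mll3/4SI 3 genes stood on opposite sides of control in different classes, each with an interval clear of 0 on both sides. The difference between the classes was not tested in any of them. Blvrb had a log2 ratio of 0.57 in granulocyte-monocyte-like cells (20.1 against 13.2 CPM) and -0.64 in basophil/mast-like cells (44.3 against 69.6 CPM). Cpox had one of 0.65 in erythroid-like cells and -0.70 in megakaryocyte-like cells (24.9 against 41.2 CPM), where the interval reached from -1.504 to -0.009. Hbb-bt had one of 4.68 in erythroid-like cells, -1.89 in megakaryocyte-like cells (2 against 25 UMIs) and -1.06 in HSC/MPP-like cells. In Mll4SI Hbb-bt was likewise opposite, at 2.22 in erythroid-like and -1.39 in HSC/MPP-like cells, again with no test. The erythroid-like values of Hbb-bt, and that of Cpox in Mll3/4SI, rest on the cells rich in haemoglobin. Without cells of 10 or more haemoglobin UMIs, Hbb-bt stood at 0.42 in Mll3/4SI and -0.21 in Mll4SI, and Cpox at -0.51.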

How the results depend on the processing

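No paired analysis was possible because each group has 1 library. Of 135 alternative values for the shares, medians and haemoglobin sums, 111 stayed within counting error of the main value, 22 moved beyond it and 2 reversed. A turn of direction was counted as reversed only where the main value itself lay beyond counting error. The median over the list in Mll4SI erythroid-like cells turned from -0.24 to 0.10 with equal weight to tertiles and to 0.047 with Hashtag2 alone; its range over alternatives was -0.42 to 0.10. That of Mll3/4SI turned from 0.14 to -0.34 with classes of nearest control cells and to -0.14 without haemoglobin-rich cells. These turns were counted as moved, because 0.14 lay within its counting error of 0.21. The erythroid-like share ratio moved to 0.886 [0.688 to 1.14] for Mll3SI with Hashtag2 alone, to 0.588 for Mll4SI and 0.589 for Mll3/4SI outside the granulocyte-monocyte-like class, and to 0.511 for Mll3/4SI with nearest control cells. In all kept cells the median moved to -0.17 (Mll3SI) and -0.18 (Mll3/4SI) as a mean over cells, to -0.49 (Mll4SI) and -0.23 (Mll3/4SI) with 10 CPM added, to -0.81 (Mll4SI) with median-of-ratios scaling, to -0.83 (Mll4SI) and -0.46 (Mll3/4SI) with no filter, and to -0.64 (Mll4SI) for genes of at least 20 CPM. In B-lymphoid-like cells the summed haemoglobin level was 0.855, 0.831, 2.93 and 1.49 CPM in control, Mll3SI, Mll4SI and Mll3/4SI. Those values rest on 1 or 2 UMIs per library. In granulocyte-monocyte-like cells without the top 1% by haemoglobin share it was 0.668, 0.207, 0 and 0.784 CPM. The 0 of Mll4SI was fixed in advance, since only 0.829% of its cells in that class held a haemoglobin UMI. The cause of these differences was not tested. Counts of called genes in erythroid-like cells ranged over alternatives from 0 to 1 higher and 0 to 7 lower in Mll3SI, 0 to 6 and 2 to 10 in Mll4SI, and 0 to 7 and 2 to 10 in Mll3/4SI; in HSC/MPP-like cells from 0 to 1 and 0 to 1, 0 to 0 and 2 to 3, and 0 to 5 and 1 to 3.

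Among the genes called in a comparison, those that reversed in erythroid-like cells were Rhd in Mll3SI (0.079 with Hashtag2) and, in Mll3/4SI, Alad (-0.088 with nearest control cells, -0.13 without haemoglobin-rich cells), Cldn13 (-0.79) and Cpox (-0.51), the last 2 without those cells. In basophil/mast-like cells those were, in Mll3SI, Car1 (0.062 at resolution 2, 0.90 with Hashtag1), Uros (0.034 and 1.10) and Fech (-0.65 with Hashtag1), and in Mll4SI Zfpm1 (0.38), Car2 (0.13) and Tfrc (0.38) with Hashtag2, and Car1 (0.52) and Ces2g (0.071) with Hashtag1. Apoe in Mll4SI ranged from -1.56 to -1.11 in erythroid-like cells and from -2.48 to -1.99 in HSC/MPP-like cells, Tspo2 in Mll4SI from -1.74 to -1.14, and Car2 in Mll3/4SI from -1.29 to -0.52 and from -2.58 to -1.42; none of these reversed under an alternative run. The hashtag, haemoglobin-rich-cell, denominator, set-aside and single-gene alternatives were chosen after seeing the data. Depth limits genes under 20 CPM in classes of 38 to 158 cells, where intervals span over 2-fold.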

Other observations

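Kit RNA in erythroid-like cells was at 258 [245 to 270.3], 272 [256 to 289], 292 [272 to 312] and 217 [197 to 238] CPM for control, Mll3SI, Mll4SI, Mll3/4SI. Surface CD117 in the same cells was 22.0%, 21.9%, 16.8% and 17.1% of surface antibody UMIs. Mll4SI thus had the highest Kit RNA and the lowest CD117 share, but a share also falls when other antibodies take more UMIs. The antibodies CD11b (0.900%, 0.954%, 3.30%, 0.794%) and CD16/32 (3.57%, 5.12%, 7.18%, 3.84%) were both highest in Mll4SI. CD117 was not computed without them, so whether its level per cell was lowest in Mll4SI was not tested. CD41, a megakaryocyte and early progenitor protein, took 1.56%, 1.06%, 2.64% and 1.95%, and CD150 5.39%, 5.90%, 4.78% and 5.87%. Gr1, a granulocyte surface marker, was 2.84%, 3.20%, 7.01% and 1.54% in erythroid-like cells, the same order of libraries as the granulocyte RNA markers there. In the cluster set aside in Mll3/4SI, Kit RNA had 3702 UMIs beside 167 for Gata1 and 1252 for Tal1.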
